A study of Homo sapiens with 3 samples.

Results

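Expression of the oestrogen receptors, the oestrogen-related receptors, the progesterone receptor and the receptor scaffold PELP1 was examined in MDA-MB-231, a human cell line long established from breast cancer. These 8 genes were taken by name, and every probe set paired with exactly 1 symbol was used, which gave 27 probe sets for 8 of 19775 measured genes. The 3 arrays were 1 of cells given the peptide ERα17p, copied from part of the oestrogen receptor alpha, at 1 µM, 1 of cells given the natural oestrogen estradiol at 1 µM, and 1 of cells given 0.1% ethanol as vehicle. All cells were first held for 4 h with 10% serum stripped of steroids by charcoal, and each agent was then present for 3 h in the same kind of serum. The labels do not name a solvent for the peptide. With 1 array per group there is no replicate check and no test, so each value describes these arrays, whose number limits the precision.

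The nuclear oestrogen receptors, encoded by ESR1 and ESR2, bind oestrogen, pair up and act on gene control regions that carry inverted repeats of the half-site GGTCA. GPER1 is a G protein-coupled receptor of membranes that has been described as mediating rapid oestrogen signals, also in cells without the receptor alpha, and MDA-MB-231 is usually classed as a line without it. The oestrogen-related receptors ESRRA, ESRRB and ESRRG are orphan nuclear receptors that do not bind oestrogen and control energy metabolism. PGR, the progesterone receptor, is a textbook target gene of ESR1 in breast cells, and PELP1 is a scaffold that links the nuclear receptors to cytoplasmic kinases and also works in ribosome assembly. ERα17p corresponds to a stretch near the border of the hinge and the hormone-binding domain of the receptor alpha.

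The sequence just before the outermost RefSeq start of 4 of the genes is shown, so that the letters an oestrogen receptor or the factor SP1 could read can be seen beside the values of each gene. Each line holds 250 bases of GRCh38.p14, 5′ to 3′ on the strand of the gene, from RefSeq. Capitals mark the half-site GGTCA (or TGACC, its other strand) and the GC box GGGCGG (or CCGCCC).
PELP1, chr17:4704138-4704387, minus strand: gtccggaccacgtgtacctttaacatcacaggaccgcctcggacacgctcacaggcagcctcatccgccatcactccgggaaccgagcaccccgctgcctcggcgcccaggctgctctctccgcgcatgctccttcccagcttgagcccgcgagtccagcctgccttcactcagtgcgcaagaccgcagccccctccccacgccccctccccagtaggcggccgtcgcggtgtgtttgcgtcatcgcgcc
GPER1, chr7:1086868-1087117, plus strand: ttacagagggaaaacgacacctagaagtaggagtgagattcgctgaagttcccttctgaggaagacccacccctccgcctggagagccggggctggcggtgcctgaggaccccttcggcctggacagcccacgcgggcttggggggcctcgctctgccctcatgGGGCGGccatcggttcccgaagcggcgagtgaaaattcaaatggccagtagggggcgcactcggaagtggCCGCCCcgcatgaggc
ESR1, chr6:151656422-151656671, plus strand: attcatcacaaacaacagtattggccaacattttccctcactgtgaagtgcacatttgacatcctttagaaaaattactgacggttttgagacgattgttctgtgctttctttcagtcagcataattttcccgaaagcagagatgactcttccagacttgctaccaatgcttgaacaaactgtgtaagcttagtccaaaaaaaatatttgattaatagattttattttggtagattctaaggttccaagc
PGR, chr11:101129814-101130063, minus strand: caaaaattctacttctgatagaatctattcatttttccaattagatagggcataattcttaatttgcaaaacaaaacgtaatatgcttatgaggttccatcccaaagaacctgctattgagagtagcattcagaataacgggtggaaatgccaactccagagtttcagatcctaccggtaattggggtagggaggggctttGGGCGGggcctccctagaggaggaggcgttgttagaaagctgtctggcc

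The half-site was found in 0 of the 8 outermost windows of the genes studied, beside 33.1% of 27305 genes with such a window. A GC box was found in 5 of the 8, beside 42.2% of genes. The window of ESRRA was the richest, with 8 GC boxes and 78% G and C, that of ESR2 held 6, those of GPER1 and ESRRG 2 each and that of PGR 1. Neither motif was found for PELP1, ESR1 or ESRRB. The full palindrome GGTCANNNTGACC and the related receptor site TCAAGGTCA were found in 0 of the 8, and they were rare among all genes, at 0.044% and 0.315%. These are matches of letters in short windows and say nothing of binding.

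Each probe set carries log2 values set relative to a reference of its own that no source describes, so a value of 0 means the reference and not absence. Expression levels, and whether a receptor was expressed at all, cannot be read from them, and the labelled cell type cannot be checked by level. The vehicle array stood apart from both treated arrays. The SD over 54675 probe sets was 0.241 for ERα17p, 0.260 for estradiol and 0.494 for vehicle. Labelling spikes, bacterial RNAs added before labelling, exceeded their vehicle values by 2.04 with ERα17p and 2.03 with estradiol (log2, medians of 27 probe sets). Hybridisation spikes, added later, were at -0.93 for ERα17p and -0.74 for estradiol (18 probe sets). Their part in the differences from vehicle was not tested, and both treated arrays are compared with the same vehicle array.

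Of the 8 genes, 1 was past 1.5-fold in each comparison with vehicle, and it was PELP1 both times. With ERα17p 0 genes were at least 1.5-fold higher and 1 lower than with vehicle, while over all genes 9.56% were higher and 8.82% lower. With estradiol 0 were higher and 1 lower, while among all genes 10.6% were higher and 8.42% lower. Between the treated arrays 0 were past the limit in either direction, beside 1.29% of all genes higher with ERα17p and 2.04% lower. The median size of the difference was 0.093 for ERα17p and 0.15 for estradiol, against 0.25 over all genes in both. Counted by single probe sets, 2 of 27 were lower with ERα17p, beside 11% of all probe sets, and 1 with estradiol, beside 11.4%. None (0 of 27) was higher with either agent, beside 13.1% of all probe sets for ERα17p and 14.1% for estradiol.

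**Figure D1:**
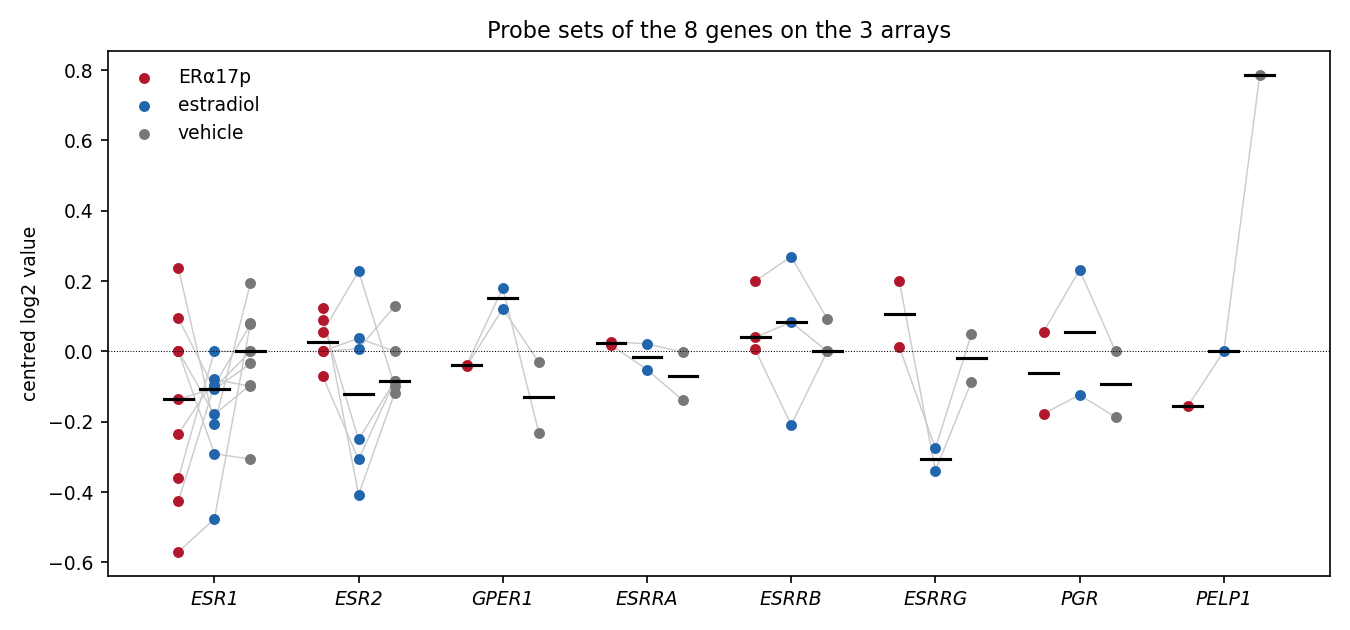
Centred log2 values of the 27 probe sets of the 8 genes on the ERα17p (red), estradiol (blue) and vehicle (grey) arrays. Each point is a probe set, grey lines join the same probe set and black bars mark the gene median. The vehicle value of PELP1 at 0.79 stands above all other points.

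ESR1, the receptor from which the peptide is derived, had 9 probe sets, and they did not move as one. Their lowest, median and highest centred values were -0.57, -0.14 and 0.24 with ERα17p, -0.48, -0.11 and 0 with estradiol and -0.31, 0 and 0.19 with vehicle. The ranges of the 3 arrays overlapped. The gene median of the log2 differences from vehicle was -0.14 for ERα17p (1.10-fold) and -0.084 for estradiol (1.06-fold). For ERα17p 4 probe sets were above 0 and 5 below, from -0.65 to 0.31, and their SD was 0.316, beside a median SD of 0.484 over 30 genes with 9 probe sets. For estradiol 2 were above 0, 6 below and 1 at 0, from -0.56 to 0.020. The lowest in both comparisons was 211233_x_at, of a class that can pick up related sequences, at -0.65 for ERα17p and -0.56 for estradiol. The probe set 205225_at, without that flag, was at 0.31 for ERα17p and 0.015 for estradiol. The 3 probe sets of that plain class had a median of 0.13 for ERα17p, opposite in sign to the gene median, and of 0 for estradiol.

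ESR2, the receptor beta, had 6 probe sets with equally mixed values. The lowest, median and highest were -0.069, 0.027 and 0.12 with ERα17p, -0.41, -0.12 and 0.23 with estradiol and -0.12, -0.084 and 0.13 with vehicle. The ERα17p and vehicle values lay inside the wider range of the estradiol values. The log2 difference from vehicle was 0.084 for ERα17p, with 4 probe sets above 0, 1 below and 1 at 0. It was -0.14 for estradiol, with 2 above 0 and 4 below. ERα17p and estradiol differed by 0.12, with 3 probe sets on each side.

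GPER1, the membrane receptor, was the gene of the group with the highest difference for estradiol. Its 2 probe sets, 210640_s_at and 211829_s_at, read -0.038 and -0.041 with ERα17p, 0.18 and 0.12 with estradiol and -0.23 and -0.030 with vehicle. Both were highest on the estradiol array. The log2 difference from vehicle was 0.091 for ERα17p, with the probe sets at 0.19 and -0.011. It was 0.28 for estradiol (1.22-fold), with the probe sets at 0.41 and 0.15, and 45.5% of all genes had a larger difference. ERα17p minus estradiol was -0.19, with the probe sets at -0.22 and -0.16.

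Among the oestrogen-related receptors, ESRRA was level across the arrays. Its probe sets 1487_at and 203193_at read 0.018 and 0.027 with ERα17p, -0.051 and 0.022 with estradiol and -0.14 and -0.0024 with vehicle. The log2 differences from vehicle were 0.094 for ERα17p and 0.056 for estradiol, and most genes had larger ones (78.3% for ERα17p and 87.2% for estradiol). ESRRB, studied mostly for its part in pluripotent cells, had 3 probe sets, which ranged from 0.0057 to 0.20 with ERα17p, from -0.21 to 0.27 with estradiol and from 0 to 0.093 with vehicle. Its differences from vehicle were 0.040 for ERα17p and 0.084 for estradiol.

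ESRRG was the gene of the group that differed most between the treatments. Its probe sets 207981_s_at and 209966_x_at read 0.20 and 0.013 with ERα17p, -0.34 and -0.28 with estradiol and -0.087 and 0.049 with vehicle. Both were lowest on the estradiol array. The log2 difference from vehicle was 0.13 for ERα17p and -0.29 for estradiol. ERα17p minus estradiol was 0.41 (1.33-fold), with the probe sets at 0.54 and 0.29, and 95.6% of all genes lay lower in that comparison. In either direction 10.0% of genes had a larger difference. ESRRG stayed under the 1.5-fold limit, and both its probe sets belong to classes that can match more than 1 transcript.

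PGR, the target gene of the nuclear receptor, differed little. Its probe sets 208305_at and 228554_at read -0.18 and 0.056 with ERα17p, -0.12 and 0.23 with estradiol and -0.19 and 0 with vehicle. The log2 difference from vehicle was 0.033 for ERα17p and 0.15 for estradiol (1.11-fold), and most genes had larger ones (92.0% for ERα17p and 68.1% for estradiol).

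**Figure D2:**
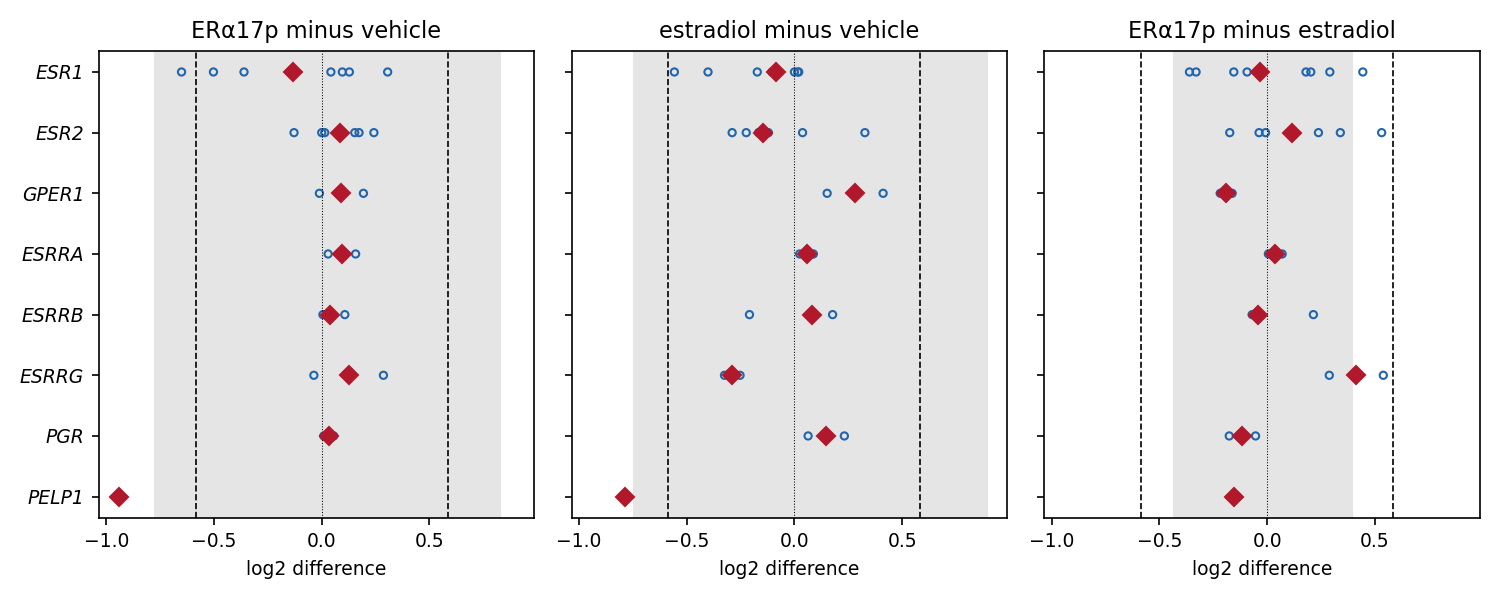
Log2 differences of the 8 genes in the 3 comparisons. Open circles are probe sets, red diamonds gene medians, dashed lines the 1.5-fold limit and the grey band the 5th to 95th percentile of all 19775 genes, which for ERα17p minus vehicle runs from -0.77 to 0.83. PELP1 lies left of the band in both comparisons with vehicle and inside it between the treatments.

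PELP1, the scaffold, was lower with both agents than with vehicle, and the vehicle value was the one far from the reference. Its only probe set, 215354_s_at, read -0.16 with ERα17p, 0 with estradiol and 0.79 with vehicle. The vehicle value was the highest of all 81 values of the group, and no other probe set of the group had a value past 1.5-fold from the reference. The log2 difference from vehicle was -0.94 for ERα17p (1.92-fold lower), and 2.89% of all genes lay lower. For estradiol it was -0.79 (1.73-fold lower), with 4.39% of genes lower. In either direction 6.72% of genes had a larger difference for ERα17p and 10.8% for estradiol. Among the 9252 genes that also rest on 1 probe set, 3.90% lay lower for ERα17p and 5.10% for estradiol. ERα17p minus estradiol was -0.16, and 47.0% of genes had a larger difference.

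The pattern of PELP1 was common among the genes that were lower than vehicle by as much as the limit, and not among all 19775 genes. Of 1745 genes at least 1.5-fold lower with ERα17p than with vehicle, 900 (51.6%) had an ERα17p value within 1.5-fold of the reference and a vehicle value past it, as PELP1 did. For estradiol this held for 919 of 1665 genes (55.2%). Against the reference level in place of the vehicle array, PELP1 was at -0.16 for ERα17p and at 0 for estradiol. After quantile normalisation of the 3 arrays it was at -0.71 for ERα17p and -0.54 for estradiol, and the second value is under the limit. The labelling and hybridisation spikes given above differed between the vehicle array and the treated arrays as well.

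PELP1 forms a complex with TEX10, WDR18, the protease SENP3, the endonuclease LAS1L and the kinase NOL9 that matures the large ribosomal subunit, with MDN1 as the motor that removes assembly factors. Of these 6 partners 1 was at least 1.5-fold lower than vehicle for ERα17p and 2 for estradiol, beside 8.82% and 8.42% of all genes, and 0 were higher. Their median log2 difference was -0.30 for ERα17p and -0.31 for estradiol, while over all genes it was 0.0021 for ERα17p and 0.0022 for estradiol. WDR18, a direct partner of PELP1, had a centred value of -0.062 with ERα17p, -0.41 with estradiol and 1.65 with vehicle. Its log2 difference from vehicle was -1.71 for ERα17p and -2.05 for estradiol, on 1 probe set of the class that can pick up related sequences. TEX10 was at -0.47 for ERα17p and -0.67 for estradiol, with both probe sets below 0 each time. SENP3 was at -0.49 for ERα17p and -0.54 for estradiol, but its 2 probe sets disagreed, at -0.25 and -0.73 for ERα17p and at 0.0055 and -1.10 for estradiol. LAS1L was at -0.13 for ERα17p and 0.18 for estradiol, NOL9 at -0.14 for ERα17p and -0.052 for estradiol, and MDN1 at -0.065 for ERα17p and -0.082 for estradiol.

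**Figure D3:**
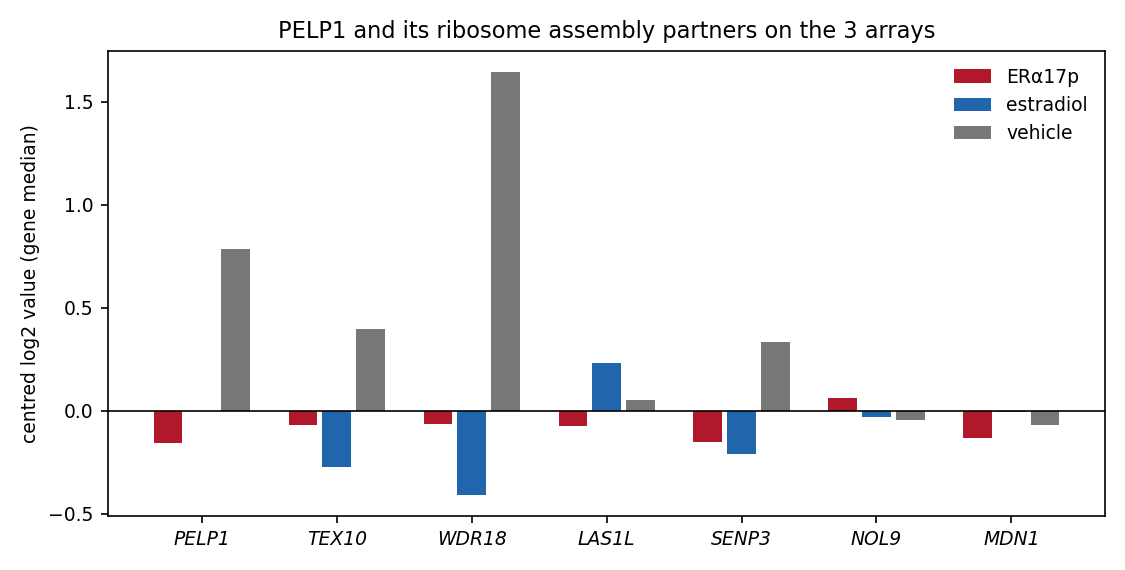
Gene medians of the centred log2 values of PELP1 and its 6 ribosome assembly partners on the ERα17p (red), estradiol (blue) and vehicle (grey) arrays. PELP1, TEX10, WDR18 and SENP3 have their highest value on the vehicle array (0.79, 0.40, 1.65 and 0.34), and the other 3 stay near 0 there.

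Other genes of the oestrogen receptor pathway were taken as 9 lists of 84 genes, of which 72 were measured and the rest not analysed here. With ERα17p 7 of them (9.72%) exceeded vehicle by 1.5-fold or more and 13 (18.1%) lay below it by as much, beside 9.56% and 8.82% of all genes. The same numbers held for estradiol, beside 10.6% of all genes above and 8.42% below. The share above vehicle was thus near that of all genes for both agents, and the share below it was larger. The lists were chosen with earlier results of these data known, so these shares only describe them and cannot test the pathway. The median log2 difference was -0.11 for ERα17p and -0.22 for estradiol. Between the treated arrays 4 (5.56%) were higher and 0 lower on the ERα17p array, beside 1.29% and 2.04% of all genes. The 4 were MED1 (0.60), NR2F1 (0.62, on 1 probe set), TFAM (0.61) and PIK3R1 (0.72), and the limit is 0.585. The probe sets of MED1 ran from 0.055 to 0.74 and those of TFAM from -0.072 to 0.64. With the mean of probe sets the lists of coactivators and of oxidative targets each had 0 genes higher, and after quantile normalisation 1 each. Quantile normalisation also gave 1 coactivator lower, where 0 were lower as reported, and 2 corepressors higher in place of 1.

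The other steroid receptors lay on the opposite side of 0 from PELP1. NR3C2, the mineralocorticoid receptor, had a centred value of 0.24 with ERα17p, 0.14 with estradiol and -2.05 with vehicle. Its log2 difference from vehicle was 2.29 for ERα17p and 2.19 for estradiol, on 1 probe set. NR3C1, the glucocorticoid receptor, was at 0.83 for ERα17p and 0.75 for estradiol. Of its 5 probe sets 4 were above 0 in both comparisons, and 232431_at was at -0.66 for ERα17p and -1.54 for estradiol. Like PELP1, both genes had the value farthest from the reference on the vehicle array.

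Coactivators that the receptors recruit lay on both sides of vehicle. Of 14 measured, 2 were higher and 1 lower for ERα17p, beside 9.56% and 8.82% of all genes. For estradiol 4 were higher and 2 lower, beside 10.6% and 8.42%. NCOA1, a steroid receptor coactivator, was at 0.83 for ERα17p and 0.71 for estradiol, with all 4 probe sets above 0 in both. NCOA4 was at 0.64 for ERα17p and 0.67 for estradiol, on 1 probe set. The arginine methyltransferase PRMT1 was at -0.92 for ERα17p and -1.14 for estradiol, and the RNA helicase DDX17 at -0.50 for ERα17p and -0.82 for estradiol. Set directly against estradiol, ERα17p was 0.60 higher for MED1, the Mediator subunit that contacts nuclear receptors, and stood at -0.46 for NCOA6 and -0.40 for NCOA7.

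Of 9 corepressors 1 was higher and 1 lower for ERα17p, beside 9.56% and 8.82% of all genes. For estradiol 0 were higher and 1 lower, beside 10.6% and 8.42%. NR2F1, an orphan receptor, was at 1.04 for ERα17p and 0.43 for estradiol, on 1 probe set. MTA1 of the NuRD complex was at -0.64 for ERα17p and -0.45 for estradiol, and SAFB2 at -0.47 for ERα17p and -0.80 for estradiol. NRIP1, which represses receptor activity, was at 0.070 for ERα17p and -0.46 for estradiol. Of the factors that open chromatin for the receptor alpha, FOXA1 was at 0.039 for ERα17p and 0.074 for estradiol, and GATA3 at 0.25 for ERα17p and 0.23 for estradiol. TFAP2C was at 0.74 for ERα17p and 0.36 for estradiol.

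Most receptor chaperones were below 0. Of 8 measured, 3 were past the limit downward for ERα17p and 2 for estradiol, and 0 upward, beside 8.82% of all genes downward for ERα17p and 8.42% for estradiol. The list had medians of -0.35 for ERα17p and -0.47 for estradiol. The co-chaperone STIP1 was at -0.82 for ERα17p and -0.81 for estradiol, and the ubiquitin ligase STUB1 at -0.80 for ERα17p and -0.68 for estradiol. The immunophilin FKBP5 was at -0.61 for ERα17p and -0.57 for estradiol, but its 3 probe sets disagreed, running from -1.42 to 0.54 for ERα17p and from -0.90 to 0.88 for estradiol. With the mean of probe sets, or after quantile normalisation, 2 of the chaperones were past the limit downward for ERα17p, and after quantile normalisation 1 was for estradiol. The chaperone HSP90AA1 was at -0.20 for ERα17p and -0.44 for estradiol. The calmodulin genes of that list were not analysed here.

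Of 10 coactivators and oxidative target genes of the oestrogen-related receptors, 1 was higher and 2 lower for ERα17p, beside 9.56% and 8.82% of all genes. For estradiol 0 were higher and 2 lower, beside 10.6% and 8.42%. PPARGC1A, a coactivator of ESRRA in energy metabolism, was at 0.74 for ERα17p and 0.49 for estradiol. Its 2 probe sets differed in size, at 0.10 and 1.38 for ERα17p and at 0.23 and 0.75 for estradiol. PPRC1, a relative of PPARGC1A, was at -1.01 for ERα17p and -1.06 for estradiol, on 1 probe set. PPARGC1B, a further relative, was at 0.18 for ERα17p and -0.36 for estradiol, and its median difference between ERα17p and estradiol was 0.43. Cytochrome c (CYCS) was at -0.75 for ERα17p and -0.46 for estradiol, and the mitochondrial transcription factor TFAM at -0.34 for ERα17p and -0.62 for estradiol. The probe sets of CYCS ran from -2.11 to 0.14 for ERα17p and from -2.71 to 0.20 for estradiol, and those of TFAM from -0.43 to 0.69 for ERα17p and from -1.03 to 0.051 for estradiol.

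Membrane signalling partners of the receptors were mostly within the limit. Of 14 measured, 2 were lower for ERα17p and 1 for estradiol, beside 8.82% and 8.42% of all genes, and 0 were higher. GNAI2, an inhibitory G protein subunit, was at -1.03 for ERα17p and -1.49 for estradiol, on 1 probe set, and the adaptor SHC1 at -0.59 for ERα17p and -0.43 for estradiol. The kinase SRC was at -0.015 for ERα17p and -0.0039 for estradiol. PIK3R1, a regulatory subunit of the PI3 kinase, was at 0.16 for ERα17p and -0.53 for estradiol, and its median difference between ERα17p and estradiol was 0.72. EGFR, the receptor of epidermal growth factor, was at 0.060 for ERα17p and -0.29 for estradiol, and its median difference between ERα17p and estradiol was 0.44. The palmitoyltransferase ZDHHC7 was at -0.51 for ERα17p and -0.26 for estradiol, and the protease MMP9 at -0.29 for ERα17p and -0.54 for estradiol, each on 1 probe set.

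Of 6 early genes linked to GPER1 signalling, 3 were lower and 0 higher for ERα17p, beside 8.82% and 9.56% of all genes. For estradiol 3 were lower and 1 higher, beside 8.42% and 10.6%. FOS, on 1 probe set, was at -1.21 for ERα17p and -1.32 for estradiol, and EGR1 at -2.58 for ERα17p and -2.89 for estradiol. As with PELP1, the vehicle value was the one farthest from the reference. The centred values of FOS were 0.55 with ERα17p, 0.44 with estradiol and 1.75 with vehicle. Those of EGR1 were 0.16 with ERα17p, -0.0099 with estradiol and 2.74 with vehicle. CCN1, a matrix protein, was at 0.49 for ERα17p and 0.79 for estradiol. The third gene past the limit downward was ATF3 for ERα17p and DUSP1 for estradiol, and both lay within 1.5-fold between the treated arrays. The stress factor ATF3 was at -0.84 for ERα17p and -0.16 for estradiol, with all 3 probe sets below 0 in both. The phosphatase DUSP1 was at -0.50 for ERα17p and -0.75 for estradiol, with probe sets from -2.38 to -0.057 for ERα17p and from -2.09 to 0.051 for estradiol.

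**Figure D4:**
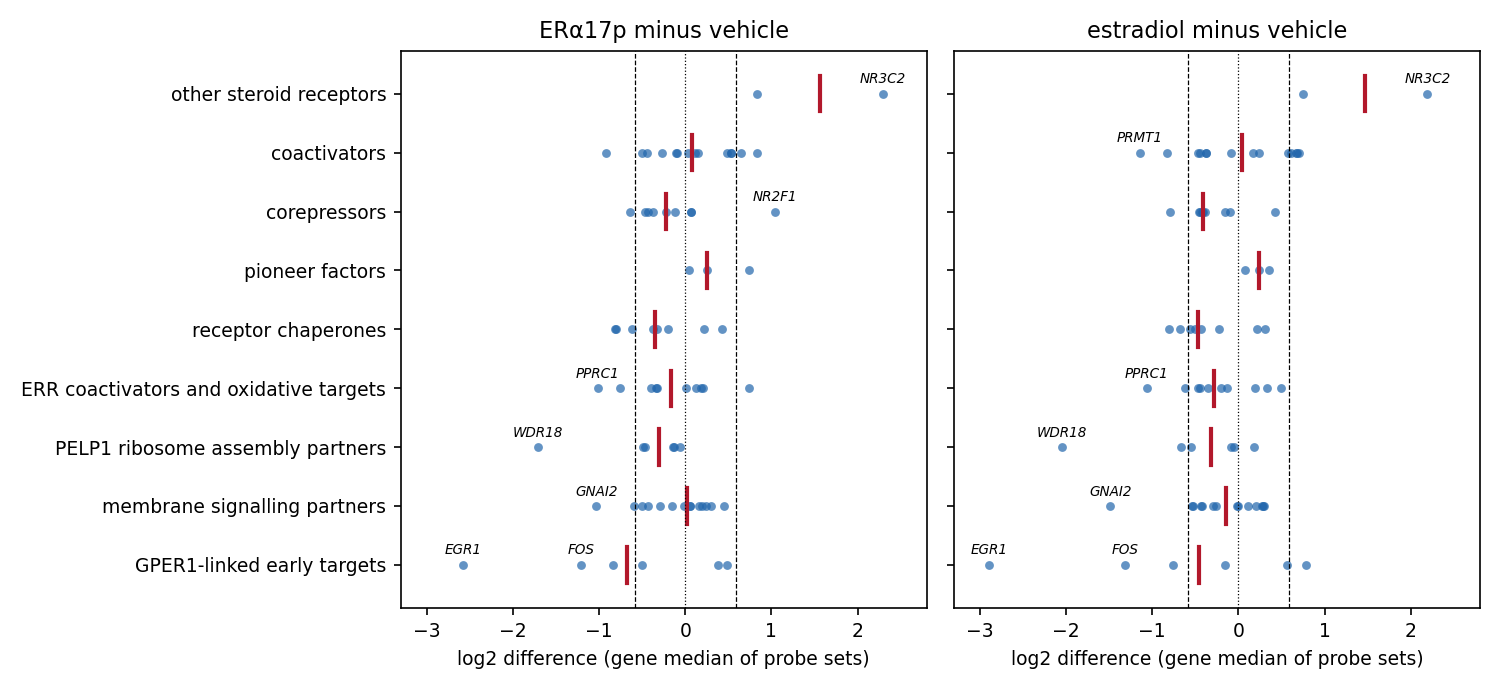
Log2 differences from vehicle of the measured genes in the 9 pathway lists, for ERα17p (left) and estradiol (right). Each point is a gene, red bars mark list medians, dashed lines the 1.5-fold limit, and genes at least 2-fold from vehicle are named. NR3C2 lies farthest right, at 2.29 for ERα17p and 2.19 for estradiol, and EGR1 farthest left, at -2.58 for ERα17p and -2.89 for estradiol.

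Markers of cell types were set beside these results. Over all genes 9.56% were higher and 8.82% lower for ERα17p, and 10.6% were higher and 8.42% lower for estradiol. Of 6 markers of mesenchymal-like breast lines 3 were higher for ERα17p and 2 for estradiol, and their summed centred values were 1.30 with ERα17p, 0.24 with estradiol and -2.67 with vehicle. On the vehicle array SNAI2 at -1.83 and FN1 at -0.81 made up most of that sum, while VIM at 0.23 and AXL at 0.12 lay above 0. Of 6 luminal markers 0 were higher and 1 lower for ERα17p, and 1 was higher and 1 lower for estradiol, with sums of -0.41 with ERα17p, 0.43 with estradiol and 1.04 with vehicle. Of 4 blood cell markers 1 was past the limit, CD14 at 0.75 for estradiol, and of 5 fibroblast and endothelial markers 0 were. The centring hides whether any marker is absent, and the part of these shifts in the results was not tested.

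Genes with the most similar values were sought over the 3 arrays among genes with at least 2 probe sets, by Euclidean distance of the gene medians. Nearest to ESR1 were PDCL (0.010), CABP4 (0.017) and POM121L12 (0.017), and 343 of 10522 genes lay within 0.1. Nearest to GPER1 were FAH (0.017), PDHB (0.021) and CBLL1 (0.021), with 273 genes within 0.1. Nearest to PELP1 were ARHGEF39 (0.018), OGFOD2 (0.022) and PRR3 (0.023), with 23 of 10523 genes within 0.1. With 3 arrays such likeness is a weak description.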

How the data were processed

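RNA from 3 cultures was labelled with biotin and hybridised to Affymetrix HG-U133 Plus 2 arrays, per the labels' protocols. The submitters' processing notes name RMA, which gives log2 values, and no version. The deposited log2 values were relative to an undescribed reference for each probe set: each array's median was 0, and 8.54%, 8.14% and 7.08% of values were exactly 0 on the ERα17p, estradiol and vehicle arrays. The genome build behind the deposited values was not stated.

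Gene names came from the platform's annotation, updated through Entrez identifiers to RefSeq of GRCh38.p14 (19734 of 19775 genes matched). Of the probe sets, 41097 had 1 symbol, 1801 several and 11777 none, and those with 1 were used. A gene's difference is the median over its probe sets of the log2 difference between 2 arrays, which need not equal the difference of its array medians. A gene was counted as higher or lower at 1.5-fold or more. With 1 array per group no test was run.

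Named genes were the 8 studied, the 3 members of each pathway list with the largest absolute difference in each comparison, and the 3 genes nearest to ESR1, GPER1 and PELP1. NOL9, MDN1, SRC, CD14, SNAI2, FN1, VIM and AXL were named after their values were seen. The members and lists were chosen with earlier results of these data known. Alternatives for the 8 genes were the mean of probe sets, plain probe sets alone, quantile normalisation, and leaving out the farthest probe set. The reference level in place of vehicle, single probe sets and other fold limits were also tried for them. The pathway lists were recalculated only with the mean of probe sets and with quantile normalisation. Analyses used Python 3.11.15, numpy 2.4.6 and pandas 2.3.3, and the calculation was tested on simulated data.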

Additional observations from a re-analysis of the deposited data

How the results depend on the processing

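The count of 1 gene lower than vehicle (PELP1) depends on its single probe set and on the vehicle array. It was 0 for ERα17p and 0 for estradiol without the probe set classes that can match several transcripts, which removes PELP1, and 0 for both when the reference level replaced the vehicle array and at a limit of 2-fold. It was 0 for estradiol after quantile normalisation, with PELP1 at -0.54. Counted by single probe sets it was 2 for ERα17p. At the lower of the other fold limits tried 1 gene, ESRRG, was higher with ERα17p than with estradiol. Of 163 values for the 8 genes and their summaries under the alternatives, 151 kept within 1.5 times the count or within 0.254 (log2) of the value. That margin of 0.254 is the SD over genes of the difference between the treated arrays. The other 12 moved farther. Part of the 151 could not move. For a gene with 1 or 2 probe sets, the mean and leaving out the farthest probe set return the same value. Using plain probe sets alone does so for a gene that has no others, so 151 does not measure stability. Of 162 values for the pathway lists, which were recalculated only with the mean of probe sets and quantile normalisation, 18 moved farther. A change of sign was labelled only where the reported difference was itself past the limit, and 0 were labelled. Among the 8 genes only PELP1 was past it, so this label does not cover smaller differences. ESR1 for ERα17p, for example, was at -0.14 as reported and at 0.13 with plain probe sets alone. The count of higher steroid receptors was 1 with the mean of probe sets for both agents, and 1 after quantile normalisation for estradiol. No paired analysis was possible because each group has 1 array. Signal over background is unknown after the centring, so which genes lay near the detection limit was not tested.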

Other observations

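RefSeq lists several starts for most of the 8 genes, 29 in all, and windows at the inner starts differed from the outermost ones. A half-site GGTCA lay in 10 of the 29 windows of 250 bases, beside 32.6% of 35116 windows of all genes. ESRRG had it at 5 of its 8 starts, PGR at 2 of 3, ESR2 at 2 of 5 and ESR1 at 1 of 6, while GPER1, ESRRA, ESRRB and PELP1 had it at 0. A GC box lay in 11 of the 29 windows, beside 42.6% of windows of all genes, and ESR1 had a GC box at 2 of its 6 starts. Some of these windows overlap, and which start MDA-MB-231 cells use is not known from the arrays. No relation to the array values was tested.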
